A study of Mus musculus with 8 samples.

Results

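Mitochondrial ribosomal protein genes were examined in RNA-seq libraries of mouse mammary tumor cells that had been sorted by their expression of the Notch ligand Dll1. They were taken as the protein-coding genes whose symbol is Mrpl or Mrps followed by a number, and 78 of the 53697 genes in the deposited table met this rule, 49 of them Mrpl and 29 Mrps. The tumors had formed in MMTV-PyMT mice on a C57BL/6 background, in which the viral promoter of MMTV drives the polyoma middle T oncogene in mammary epithelium. Of the 4 mice, 2 carried the Dll1-GFP knock-in allele and 2 the Dll1-mCherry transgene, which is BAC-based, and they are named here GFP and mCh mice 1 and 2. Each mouse gave 1 library of reporter-negative (Dll1-) and 1 of reporter-positive (Dll1+) cells, after cells with CD45, CD31 or Ter119 had been removed. All mice carried PyMT, and there was no tumor without the oncogene, no mouse without a reporter and no treatment. The age of the mice and the number of tumors per library are not given in the sources used here. Since the reporter line, the mice and any difference in handling go together, they cannot be told apart in a comparison of the lines.

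The mitochondrial ribosome translates the few mRNAs of the mitochondrial genome, all of which encode core subunits of the respiratory chain and ATP synthase. Its rRNAs come from that genome, whereas its proteins are encoded in the nucleus, made in the cytosol and imported. The large subunit forms peptide bonds and holds the exit tunnel, and the small subunit reads the mRNA. Some of the proteins have a bacterial counterpart, and others were added during the evolution of mitochondria. The symbols do not follow the particles throughout: Mrps18a and Mrps30 belong to the large subunit, Mrpl58 is a peptidyl-tRNA hydrolase built into it, and Mrps36 is now known as a subunit of the α-ketoglutarate dehydrogenase complex. The known particles therefore hold 51 of the genes in the large and 26 in the small subunit.

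The genes share features in their promoters that the rule did not use. RefSeq promoter windows on GRCm38.p6, from 250 bases before to 50 bases after the transcription start, were at hand for 69 of the 78 genes. The core of the GABPA/ETS motif (CCGGAAG, either strand) was in the windows of 26 genes, 37.7%, against 12.9% of all genes with a window. An exact YY1 core (AAGATGGC) was in 12, 17.4%, against 3.57%, and an exact NRF1 core (GCATGCGC) in 8, 11.6%, against 3.93%. The E-box CACGTG was in 5 (7.25%, against 8.91% of all genes) and the TATA box TATAAA in 5 (7.25%, against 14.8%). At least 1 of the GABPA/ETS, YY1 and NRF1 cores was found for 38 genes, 55.1%, against 18.7% of all genes. A match is a description of the letters and not of a bound site. The windows of 3 genes of the Dll1 comparison, Mrpl18, Mrpl22 and Mrps27, and of Mrps11 are printed 5′ to 3′ to show the kinds of promoter, with motif matches in capitals. Mrpl18 holds a GABPA/ETS core, Mrpl22 a GABPA/ETS and an NRF1 core, Mrps27 a GABPA/ETS and a YY1 core, and Mrps11 a YY1 core.
Mrpl18 promoter, chr17:12916042-12916341, minus strand: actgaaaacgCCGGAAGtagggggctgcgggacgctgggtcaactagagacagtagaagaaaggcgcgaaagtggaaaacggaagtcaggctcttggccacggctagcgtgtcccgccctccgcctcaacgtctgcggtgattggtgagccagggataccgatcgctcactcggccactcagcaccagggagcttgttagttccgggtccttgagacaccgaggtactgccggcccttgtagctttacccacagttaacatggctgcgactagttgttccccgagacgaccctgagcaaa
Mrpl22 promoter, chr11:58171414-58171713, plus strand: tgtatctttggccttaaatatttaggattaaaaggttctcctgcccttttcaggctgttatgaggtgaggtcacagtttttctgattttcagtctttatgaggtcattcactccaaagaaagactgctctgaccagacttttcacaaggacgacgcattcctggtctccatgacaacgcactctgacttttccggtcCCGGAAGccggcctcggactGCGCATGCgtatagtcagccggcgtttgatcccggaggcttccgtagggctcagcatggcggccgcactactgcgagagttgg
Mrps27 promoter, chr13:99344536-99344835, plus strand: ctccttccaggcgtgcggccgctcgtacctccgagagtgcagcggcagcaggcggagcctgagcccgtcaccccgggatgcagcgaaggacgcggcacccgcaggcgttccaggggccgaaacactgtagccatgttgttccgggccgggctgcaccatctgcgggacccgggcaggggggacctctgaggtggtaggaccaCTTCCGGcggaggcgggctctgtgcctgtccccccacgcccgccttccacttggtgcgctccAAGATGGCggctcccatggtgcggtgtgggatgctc
Mrps11 promoter, chr7:78782881-78783180, plus strand: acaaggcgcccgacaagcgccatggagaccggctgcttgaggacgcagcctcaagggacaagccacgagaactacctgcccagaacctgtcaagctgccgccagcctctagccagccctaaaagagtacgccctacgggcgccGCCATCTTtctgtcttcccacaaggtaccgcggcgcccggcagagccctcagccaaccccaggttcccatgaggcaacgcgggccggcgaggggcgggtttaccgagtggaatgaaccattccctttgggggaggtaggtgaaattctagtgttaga

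Mrps11 starts head to head with another gene of the set, Mrpl46. The outermost annotated starts of these genes are 412 bases apart, and the genes overlap there. Such an arrangement, a protein-coding gene on the opposite strand starting within 1000 bases, was present for 33 of the 78 genes (42.3%), against 10.8% of protein-coding genes in the annotation. Their neighbours include Ndufs6, a complex I subunit, next to Mrpl36, and Tcp1, a subunit of the cytosolic chaperonin, next to Mrpl18. Of the 78 genes, 42 overlap another annotated gene. Among them, 23 overlap a protein-coding gene on the opposite strand and 4 a protein-coding gene on the same strand. The library kit kept the strand, but the strand setting of the quantification is not given in the sources used here.

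Dll1 was higher in the Dll1+ library of each mouse, and every library held epithelial transcripts along with those of other cells. Dll1 had 7.61 and 13.7 CPM (counts scaled to a common library size, by TMM) in the Dll1- and 87.5 and 138 in the Dll1+ libraries of GFP mice, and 34.7 and 50.3 against 203 and 250.2 CPM in mCh mice. The epithelial marker Epcam lay between 899 and 1240 CPM in all 8 libraries. Markers of cells that the sort removes were not absent. Ptprc (CD45) had 2.88 to 12.7 CPM and Pecam1 (CD31) 13.7 to 98.2 CPM. Summed over 8 genes, immune markers had 336 and 374 CPM in Dll1- libraries of mCh mice, against 81.2 and 64.5 in GFP mice. The sum of 6 endothelial markers was 141 and 327 CPM against 45.95 and 47.1 in the same libraries. That of 4 erythroid markers was highest in the Dll1- libraries of mCh mice, with 108 and 52.8 CPM. Fibroblast markers, which the sort did not target, stood apart in the Dll1- libraries of mCh mice, where the summed level of 8 genes was 7539 and 21592 CPM, above that of 5 luminal epithelial markers (4742 and 6121 CPM) in the same libraries. Total counts were 27301396 to 123907626 per library. edgeR's filter on low counts kept every one of the 78 genes, and a gene had 49 to 13572 counts in a library.

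Where they differed between Dll1+ and Dll1- cells of the same mouse, mitochondrial ribosomal protein genes were lower in Dll1+ cells, and the size of the change was small. With the mouse as a block, 17 of the 78 genes were lower and 0 higher in Dll1+ cells at an adjusted p under 0.05 (edgeR quasi-likelihood test, Benjamini-Hochberg over 18322 genes). That is 21.8% of the genes, where 7.04% of all genes tested were lower and 6.98% higher. The median log2 fold change of the 78 was -0.19, or 0.875 times the Dll1- level, against -0.0007 over all genes, and 73 of the 78 fold changes were below 0. Over all genes, 9184 of 18322 were below 0. At an unadjusted p under 0.05, 37 were lower and 2 higher, against 16.3% and 16.1% of all genes. DESeq2's Wald test called 31 lower and 1 higher, against 12.2% and 11.6% of all genes. The count needs the pairing of libraries by mouse: with the reporter line in place of the mouse in the edgeR model it was 6, and with neither it was 0, for these genes and for all genes. In these bulk libraries, fewer cells of a kind and less RNA per cell cannot be told apart.

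The shift was present in each mouse but differed in size. The median difference between the Dll1+ and Dll1- library, on the log2 CPM scale, was -0.22 in GFP mouse 1, -0.20 in GFP mouse 2, -0.28 in mCh mouse 1 and -0.06 in mCh mouse 2. The Dll1+ library was lower for 64, 66, 74 and 55 of the 78 genes in these mice, and mCh mouse 2 thus showed the smallest shift. Of all genes tested, 52.4%, 49.1%, 49.7% and 45.0% were lower, with medians of -0.02, 0.007, 0.001 and 0.04. For 41 genes (52.6%) the Dll1+ library was the lower one in all 4 mice, which held for 19.9% of all genes. All 17 genes past the threshold were among the 41, but they were chosen by a test on these same differences. The count rested on few mice. Without GFP mouse 1 or without mCh mouse 1 edgeR called 0 of the 78 genes (27 lower at an unadjusted p under 0.05 in either case), and without GFP mouse 2 it called 2, Mrpl12 and Mrpl18. Without mCh mouse 2 it called 22. Of all genes, 0.932% were lower without GFP mouse 1, 1.97% without GFP mouse 2, 1.17% without mCh mouse 1 and 7.43% without mCh mouse 2, so that calls were lost over the whole table in the first 3 of these fits. The 27 genes lower at an unadjusted p compare with 12.4% and 11.3% of all genes in the same fits. The median stayed between -0.24 and -0.16.

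**Figure D1:**
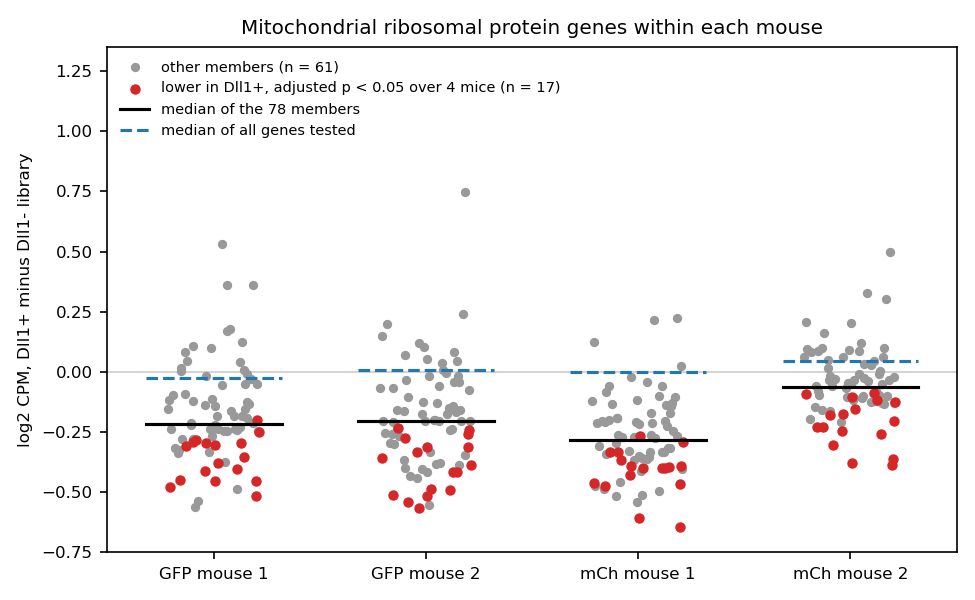
Difference between the Dll1+ and the Dll1- library of each mouse (log2 CPM, vertical axis) for the 78 mitochondrial ribosomal protein genes, 1 point per gene, with the 17 genes past the threshold over the 4 mice in red. Black lines give the median of the 78 genes, from -0.28 in mCh mouse 1 to -0.06 in mCh mouse 2, and dashed lines the median of all genes tested.

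Of the 17 genes, 15 encode proteins of the large subunit. Mrpl18, a protein of its central protuberance, had the lowest adjusted p. Mrpl18 held 27.5 and 26.5 CPM in the Dll1- libraries of GFP mice 1 and 2 and 20.1 and 18.5 CPM in their Dll1+ libraries, and 50.7 and 36.5 against 33.3 and 28.05 CPM in mCh mice 1 and 2. In each line both Dll1+ libraries were below both Dll1- libraries, while the lines were at different levels, so that the 4 Dll1+ and the 4 Dll1- values together overlapped (log2 fold change -0.49, SE 0.06, adjusted p = 0.0109). Mrpl12 encodes the protein of the stalk that recruits translation factors, a homolog of bacterial L7/L12. Mrpl12 had 47.7 and 49.4 CPM in the Dll1- libraries of GFP mice 1 and 2 and 33.3 and 39.8 CPM in their Dll1+ libraries, and 109 and 83.6 against 69.4 and 65.1 CPM in mCh mice 1 and 2. The same order held in both lines, with the largest drop in mCh mouse 1 (log2 fold change -0.46, SE 0.07, adjusted p = 0.0156). Mrpl18 lies at chr17:12911349-12916345 and Mrpl12 at chr11:120484613-120489065 of GRCm38.

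Among the other large subunit genes with a bacterial counterpart, Mrpl34 fell by 0.42 on the log2 scale (adjusted p = 0.0266) and Mrpl22, whose protein lines the exit tunnel, by 0.39 (adjusted p = 0.0255). Mrpl22 held 13.8 and 16.2 CPM in the Dll1- libraries of GFP mice 1 and 2 and 10.04 and 13.5 CPM in their Dll1+ libraries, and 25.3 and 21.96 against 18.3 and 16.8 CPM in mCh mice 1 and 2. Within each line both Dll1+ values of Mrpl22 were below both Dll1- values. Mrpl16, Mrpl13, Mrpl21, Mrpl28, Mrpl36, Mrpl3 and Mrpl9, of the same origin, had log2 fold changes from -0.36 to -0.25 and adjusted p from 0.0249 to 0.0495. Mrpl3 and Mrpl16 are the counterparts of bacterial proteins next to the peptidyl transferase centre. Mrpl39, Mrpl40, Mrpl49 and Mrpl53 are proteins that bacteria lack, and they fell by 0.35, 0.35, 0.27 and 0.31. Mrpl53 shares a stretch of 695 bases with the overlapping gene Gm42688, which had 3511 counts over the 8 libraries against 10700 for Mrpl53, so its counts are uncertain.

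In the small subunit, 2 of 26 genes passed the threshold, 7.69%, which is near the share over all genes. They were Mrps26 and Mrps27, and both encode proteins that bacteria lack. Mrps27 held 27.5 and 29.3 CPM in the Dll1- libraries of GFP mice 1 and 2 and 20.6 and 23.3 CPM in their Dll1+ libraries, and 41.4 and 35.2 against 30.7 and 29.7 CPM in mCh mice 1 and 2. All 4 within-mouse differences of Mrps27, a protein with pentatricopeptide repeats, pointed down, with no overlap within a line (log2 fold change -0.36, SE 0.06, adjusted p = 0.0206). Mrps26, at chr2:130563742-130568695, held 27.4 and 31.9 CPM in the Dll1- and 22.5 and 21.9 CPM in the Dll1+ libraries of GFP mice, and 59.6 and 40.4 against 46.2 and 32.7 CPM in mCh mice (log2 fold change -0.37, SE 0.07, adjusted p = 0.0212). It was lower in the Dll1+ library of each mouse, but in the mCh line the groups overlapped. Mrps26 shares its locus with an antisense transcript, 4930473A02Rik, and Mrps27, at chr13:99344786-99415562, with a noncoding transcript on the opposite strand.

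**Figure D2:**
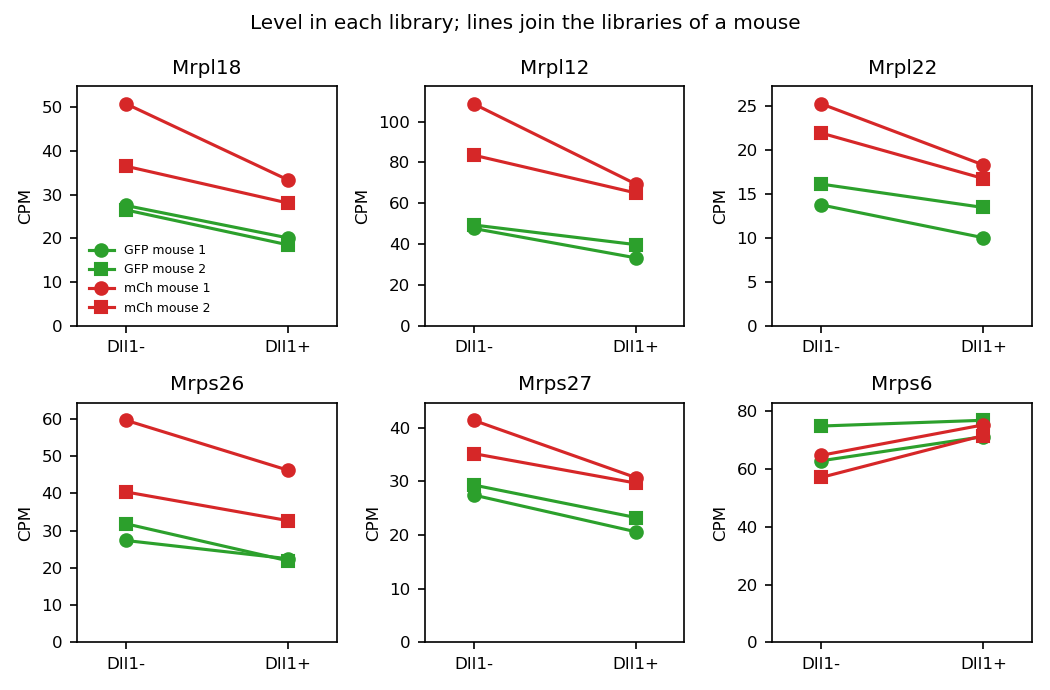
CPM (vertical axes, from 0) of 5 genes past the threshold and of Mrps6 in the Dll1- and Dll1+ library of each mouse, with lines joining the libraries of a mouse (green, GFP; red, mCh). The lines of Mrpl18, Mrpl12, Mrpl22, Mrps26 and Mrps27 slope down in all 4 mice and those of Mrps6 slope up.

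By particle, 15 of 51 large subunit genes were lower (median log2 fold change -0.22) and 2 of 26 small subunit genes (median -0.14), with 0 higher in either. The difference between the particles was not tested. At an unadjusted p under 0.05, 27 large and 10 small subunit genes were lower, and 1 of each higher. By origin the medians lay close together, -0.20 for the 45 genes with a bacterial counterpart (11 lower) and -0.19 for the 30 without (6 lower). The paralogs Mrps18a, Mrps18b and Mrps18c, which all derive from bacterial S18, had a log2 fold change of -0.06, -0.29 and -0.21, in this order, at adjusted p of 0.506, 0.115 and 0.126. The genes that stand apart by function were not past the threshold either, with -0.12 for Mrpl58 (adjusted p = 0.261), -0.14 for Mrps30 (adjusted p = 0.393) and 0.09 for Mrps36 (adjusted p = 0.678).

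**Figure D3:**
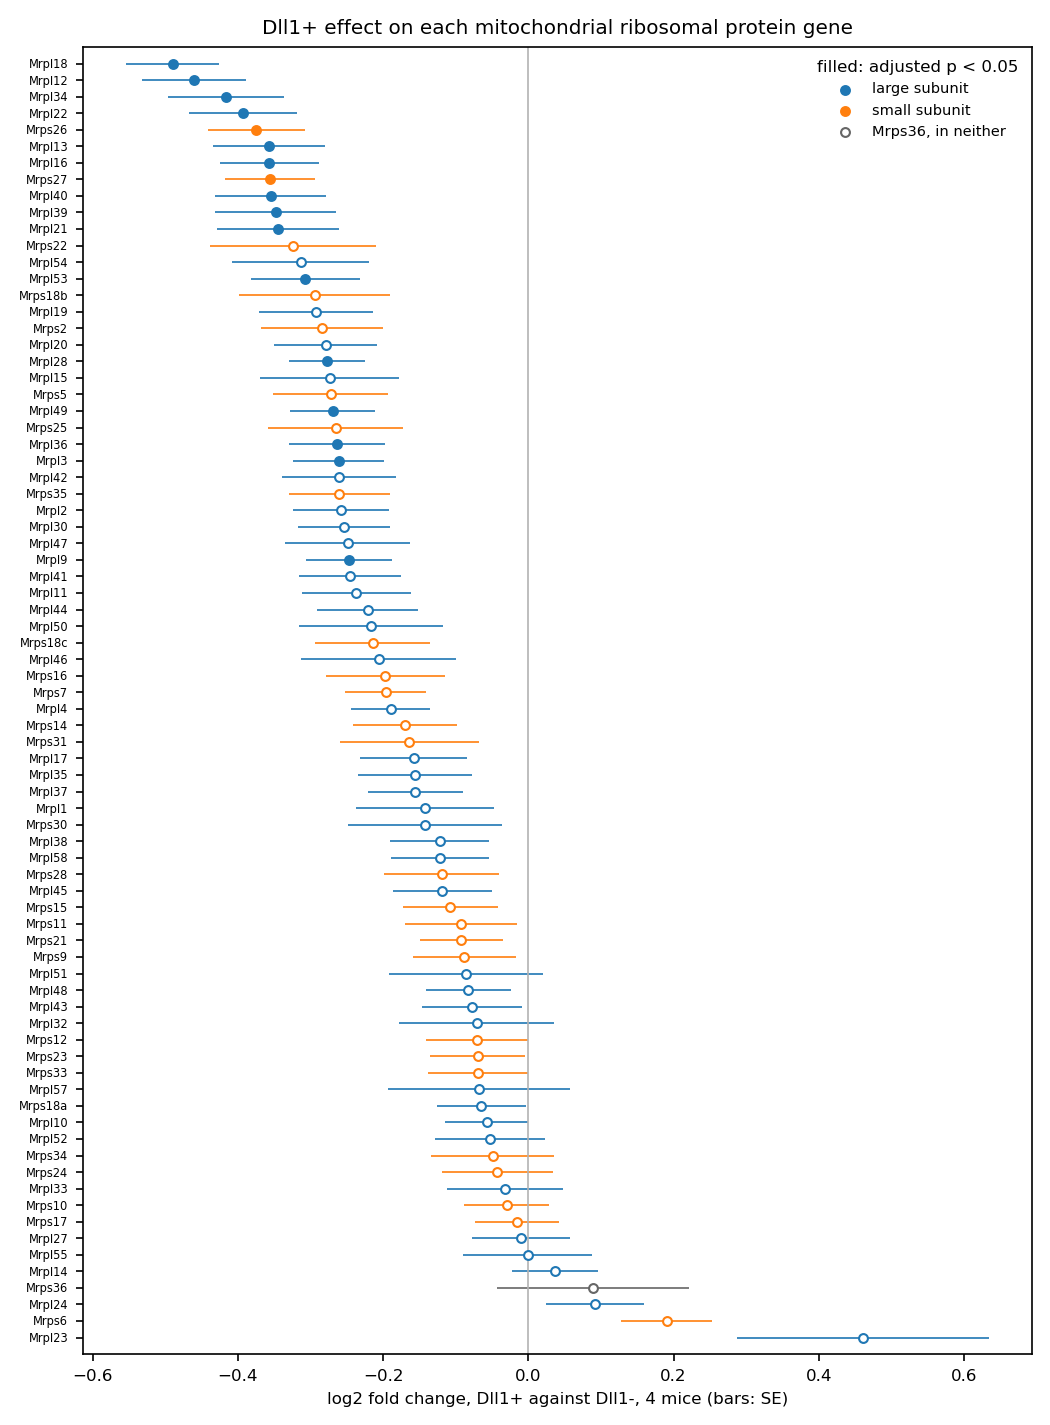
Log2 fold change of Dll1+ against Dll1- cells, all 4 mice (horizontal axis, bars give the SE) for the 78 genes in order, coloured by subunit, with filled points for the 17 genes past the threshold. The values run from -0.49 for Mrpl18 to 0.46 for Mrpl23, and 73 lie below 0.

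The 2 genes that were higher in the Dll1+ library of all 4 mice were Mrps6 and Mrpl23, and neither passed the threshold with edgeR. Mrps6 held 62.9 and 74.9 CPM in the Dll1- libraries of GFP mice 1 and 2 and 71.2 and 76.9 CPM in their Dll1+ libraries, and 64.8 and 57.1 against 75.3 and 71.6 CPM in mCh mice 1 and 2. In the mCh line both Dll1+ values of Mrps6, a protein of the small subunit, were above both Dll1- values, and in the GFP line the groups overlapped. The fold change over the 4 mice was 0.19 on the log2 scale (SE 0.06, adjusted p = 0.0961). DESeq2's Wald test called it higher. Mrps6 overlaps the protein-coding genes Slc5a3 and Gm49711 on the same strand, and the part of this overlap in its counts was not tested. Mrpl23 had the highest fold change of the set (log2 fold change 0.46, SE 0.17, adjusted p = 0.129) and the lowest level per length, with 1.62 to 3.29 CPM. A processed pseudogene, Mrpl23-ps1, matches 540 bases of its transcript at 100% identity and had 12580 counts over the 8 libraries, against 972 for Mrpl23. The 2 cannot be told apart over that stretch. With the pseudogene added, Mrpl23 had 23.4 and 23.8 CPM in Dll1- and 27.5 and 25.6 in Dll1+ libraries of GFP mice, and 35.3 and 35.8 against 35.3 and 43.9 CPM in mCh mice. The log2 fold change over the 4 mice was then 0.16 (edgeR adjusted p = 0.186). In all, 9 of the 78 genes had such a near copy with at least 5% of their own counts.

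Within each reporter line, with 2 mice, few genes passed. The values rest on the same libraries as those over the 4 mice. In GFP mice Mrpl18 and Mrpl54 were lower in Dll1+ cells and 0 were higher (edgeR; 4.84% of all genes were lower), with a median log2 fold change of -0.22. At an unadjusted p under 0.05, 25 were lower and 0 higher, against 14.4% and 12.4% of all genes. Mrpl54 changed by -0.48 on the log2 scale in GFP mice (adjusted p = 0.0383) and its value was -0.15 (adjusted p = 0.353) in mCh mice. In mCh mice Mrpl12 and Mrpl18 were lower and 0 were higher (6.25% of all genes were lower), with a median of -0.18. At an unadjusted p under 0.05, 17 of the 78 (21.8%) were lower and 1 higher, against 15.7% and 14.5% of all genes. In both lines the share past the adjusted threshold was below that of all genes. DESeq2 called 4 lower in GFP and 2 lower in mCh mice, and 0 higher in either, against 5.71% and 7.79% of all genes lower. Leaving out a mouse of the line itself leaves 1 mouse there, for which the within-mouse medians above give the size of the shift. Without mCh mouse 1 or 2 the count in GFP mice was 9 or 8, where 6.81% and 6.61% of all genes were lower. Without either GFP mouse 0 were called in mCh mice, where 3.04% and 2.61% of all genes were lower. At an unadjusted p under 0.05, 11 were lower in both of these fits, against 14.7% and 14.8% of all genes. Next to the genes called, Mrpl34 in GFP mice (-0.48, adjusted p = 0.0566) and Mrpl22 in mCh mice (-0.43, adjusted p = 0.0544) had the lowest fold changes. The highest were those of Mrpl23 (0.56 and 0.36), Mrps6 (0.11 and 0.27), Mrps36 in GFP mice (0.16) and Mrpl24 in mCh mice (0.17), none of them past the threshold.

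No difference in the Dll1+ effect between the lines was detectable for any of the 78 genes. With the contrast of the 2 effects in the edgeR fit 0 genes passed, 0 had an unadjusted p under 0.05, and DESeq2 called 0, while 0.071% of all genes passed. The lowest adjusted p was that of Mrpl54, 0.398, with an effect that was lower in GFP than in mCh mice by 0.33 on the log2 scale (SE 0.14). The SE of the difference had a median of 0.15 on the log2 scale, which is close to the size of the effects themselves.

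Other genes of mitochondrial translation were lower in part. Of 16 translation factors, 3 were lower in Dll1+ cells and 0 higher (median log2 fold change -0.12). They were Tufm, the elongation factor that delivers tRNAs (log2 fold change -0.33, SE 0.06, adjusted p = 0.0238), Gfm1, the translocation factor (-0.31, adjusted p = 0.0418), and Lrpprc, which stabilises mitochondrial mRNAs (-0.29, adjusted p = 0.0481). Of 20 genes for tRNA charging, 5 were lower and 0 higher (median -0.18), among them Qrsl1 and Gatb, subunits of the amidotransferase that makes glutaminyl-tRNA (-0.49 and -0.41), and Iars2, the isoleucine enzyme (-0.31). The adjusted p of these 3 were 0.0303, 0.0322 and 0.0307. The summed level of this list in Dll1+ cells was 0.823 times the Dll1- level in GFP and 1.39 times in mCh mice. Its median log2 fold change was -0.24 in GFP and -0.11 in mCh mice, where 13 of the 20 values were below 0. For the difference between the lines 0 of 20 passed (edgeR), with 1 at an unadjusted p under 0.05. In mCh mouse 2 the Dll1+ library was lower for 10 of the 20. In mCh mice alone 0 were called in either direction (5 lower and 2 higher at an unadjusted p under 0.05). Lars2, the leucine enzyme, had the highest value there, 0.61 (edgeR adjusted p = 0.0594), against -0.32 in GFP mice, and is named after its values were seen.

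None of the 26 mitoribosome assembly genes passed in edgeR's test (3 lower and 0 higher at an unadjusted p under 0.05, median -0.08). Those with the lowest p were Rpusd4, a pseudouridine synthase (-0.26), Noa1, a GTPase (-0.27), and Tfb1m, an rRNA methyltransferase (-0.31), with adjusted p from 0.0716 to 0.149. The 5 mitoribosomal proteins without an Mrp symbol had a median of -0.19 and 0 called (2 lower at an unadjusted p under 0.05), with -0.29 for Ptcd3, -0.19 for Dap3 and -0.21 for Gadd45gip1. In the list of mitochondrial DNA replication and transcription 0 of 10 passed (2 lower and 1 higher at an unadjusted p under 0.05). Polg2, the accessory subunit of the DNA polymerase, had 0.34 (adjusted p = 0.0804), Polg, its catalytic subunit, -0.14 and Polrmt, the RNA polymerase, -0.21. Of 9 regulators of mitochondrial biogenesis, Pprc1, a coactivator of the PGC-1 family, was lower (log2 fold change -0.33, SE 0.07, adjusted p = 0.0334). Ppargc1b and Myc had -0.36 and -0.22 and did not pass.

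For the 13 mRNAs that the mitochondrial ribosome translates, the medians lay on opposite sides of 0 in the lines, and the difference passed the test for none of them. Their median within-mouse log2 difference was -0.61, -0.21, 0.38 and 0.38 in GFP mice 1 and 2 and mCh mice 1 and 2. The Dll1+ library was lower for 13, 8, 2 and 1 of the 13 in the same order. In GFP mice 1 was lower and 0 higher in Dll1+ cells (edgeR; 8 lower and 0 higher at an unadjusted p under 0.05), and in mCh mice 3 were higher and 0 lower (5 and 0). For the difference between the lines 0 of 13 passed, with 8 at an unadjusted p under 0.05. Over the 4 mice the median was 0.003. The lowest p belonged to mt-Atp8, mt-Co3 and mt-Cytb, whose fold changes on the log2 scale were 0.71, 0.66 and -0.21, at adjusted p from 0.277 to 0.368.

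Larger gene groups give a scale for the shift. Of 77 cytosolic ribosomal protein genes tested (of 80), 1 was lower and 0 higher in Dll1+ cells (25 and 0 at an unadjusted p under 0.05), with a median log2 fold change of -0.17, -0.28 in GFP and -0.05 in mCh mice. Their within-mouse medians were -0.32, -0.27, -0.20 and 0.10 in the same order of mice, so that they were lower in 3 of 4. Of 81 nuclear genes for respiratory chain subunits (of 84), 16 were lower and 0 higher, with a median of -0.14, and their within-mouse medians were -0.13, -0.19, -0.21 and -0.07. Whether the mitochondrial ribosomal protein genes differed from either group was not tested. All 24 S and G2/M phase genes were lower in Dll1+ cells, with within-mouse medians of -1.15, -1.18, -1.16 and -0.73, and here too mCh mouse 2 had the smallest shift. The part of the cell cycle difference in the values of the mitochondrial ribosomal protein genes was not tested.

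**Figure D4:**
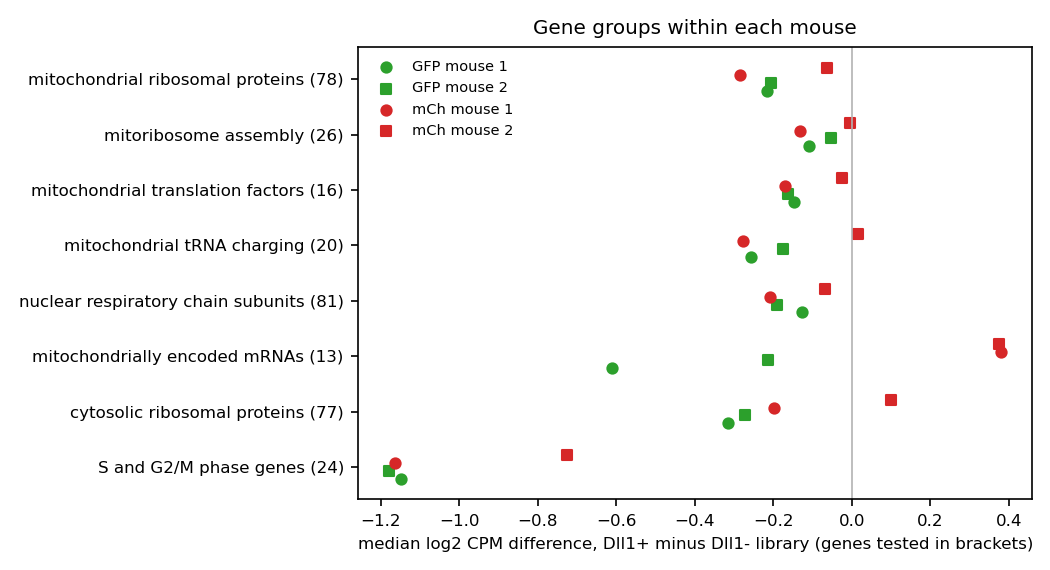
Median difference between the Dll1+ and Dll1- library (log2 CPM, horizontal axis) of 8 gene groups in each of the 4 mice (green, GFP; red, mCh; circles, mouse 1; squares, mouse 2). The mitochondrial ribosomal protein genes lie below 0 in all 4 mice, the mitochondrially encoded mRNAs below 0 in GFP and above 0 in mCh mice, and the S and G2/M phase genes between -1.18 and -0.73.

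Markers of other cells moved with Dll1 status in the mCh line. The summed level of 8 fibroblast markers was 1078 and 1226 CPM in the Dll1- and 992 and 1141 in the Dll1+ libraries of GFP mice. In mCh mice it was 7539 and 21592 CPM in Dll1- and 3009 and 3262 CPM in Dll1+ libraries, so that in this line the groups did not overlap. Summed endothelial (6 genes), immune (8) and pericyte (4) markers were likewise 0.342, 0.451 and 0.288 times their Dll1- level in the Dll1+ libraries of mCh mice, and 1.02, 1.09 and 1.14 times in GFP mice. None of these markers was at 0 in any library. The median log2 fold change of the mitochondrial ribosomal protein genes was -0.22 in GFP and -0.18 in mCh mice. Basal epithelial markers (5 genes) were 2.04 and 2.96 times and luminal markers (5) 1.11 and 1.27 times the Dll1- level in GFP and mCh mice. Immediate early and dissociation genes (14) were 1.48 and 1.41 times as high, and 4 erythroid markers 0.571 and 0.386 times. The part of these markers in the result was not tested.

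Between the reporter lines the genes differed more than between Dll1+ and Dll1- cells. In Dll1- cells mCh mice exceeded GFP mice for 51 of the 78 genes, with 0 lower (edgeR, adjusted p under 0.05), with a median log2 fold change of 0.55, where 18.7% of all genes were higher. In Dll1+ cells 47 were higher and 0 lower, with a median of 0.52, where 15.2% of all genes were higher. At an unadjusted p under 0.05, 60 and 66 were higher and 0 lower, against 24.1% and 22.9% of all genes higher. DESeq2 called 56 and 53 higher and 0 lower, against 20.9% and 17.3% of all genes higher. These fits treated the Dll1- and Dll1+ libraries of a mouse as independent. With each Dll1 status fitted alone, edgeR called 25 higher in Dll1- and 34 in Dll1+ cells, against 14.5% and 11.6% of all genes. For 59 genes (75.6%) all 4 mCh libraries lay above all 4 GFP libraries, against 21.5% of all genes. Both comparisons rest on 2 mice per line, and without either GFP mouse edgeR called 0 of the 78 genes, and 0 of all genes, in Dll1- and in Dll1+ cells. Those fits leave 1 mouse in the GFP line, which was assumed to vary like the other line.

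Mrpl12, the stalk protein, had the highest fold change in Dll1- cells. With the values given for it, its mCh libraries ranged from 65.1 to 109 CPM and its GFP libraries from 33.3 to 49.4, with no overlap (log2 fold change 0.99, SE 0.15, adjusted p = 0.00409). Mrpl34 and Mrpl52 followed with 0.93 and 0.92. In Dll1+ cells the highest were Mrpl34 (log2 fold change 1.05, SE 0.15, adjusted p = 0.00562), Mrpl54 (0.99) and Mrpl12 (0.88). The lowest were Mrps6 (-0.18), Mrpl23 (-0.17) and Mrps10 (0.05) in Dll1- cells, and Mrpl23 (-0.39), Mrps6 (-0.01) and Mrpl37 (0.05) in Dll1+ cells, none of them past the threshold. With its pseudogene added, Mrpl23 was higher in mCh mice by 0.59 in Dll1- cells (edgeR adjusted p = 0.0122) and by 0.58 in Dll1+ cells (adjusted p = 0.0169), the opposite direction to the gene alone.

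The difference between the lines went with transcript length over all genes. In Dll1- cells the median log2 fold change of protein-coding genes was 0.55 for transcripts under 1000 bases, 0.31 from 1000 to under 2000, 0.02 from 2000 to under 4000 and -0.32 at 4000 bases and over. For the mitochondrial ribosomal protein genes, 78 in all, the medians in these classes were 0.62 (30 genes), 0.46 (28), 0.44 (14) and 0.47 (6). In Dll1+ cells the medians were 0.55, 0.34, 0.07 and -0.27 for protein-coding genes and 0.59, 0.50, 0.49 and 0.47 for the set. The genes of the set are short, with a median length of 1224.5 bases against 2695 for protein-coding genes tested. The median of the set was above that of protein-coding genes in each of the 4 classes, and the gap was smallest for transcripts under 1000 bases. It was not tested, and the longest classes hold 14 and 6 genes of the set. Spearman's rho between length and the fold change in Dll1- cells was -0.25 over the 78 genes and -0.35 over 14641 protein-coding genes, points that share the same 4 libraries. Other groups of short genes were higher in mCh mice as well, with 68 of 77 cytosolic ribosomal protein genes (median 0.65) and 65 of 81 respiratory chain genes (median 0.64) in Dll1- cells. The part of transcript length in the line difference was not tested. For the Dll1 comparison over the 4 mice, the medians of protein-coding genes in the 4 classes were -0.07, -0.05, -0.02 and 0.003, and those of the set -0.10, -0.20, -0.15 and -0.27.

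**Figure D5:**
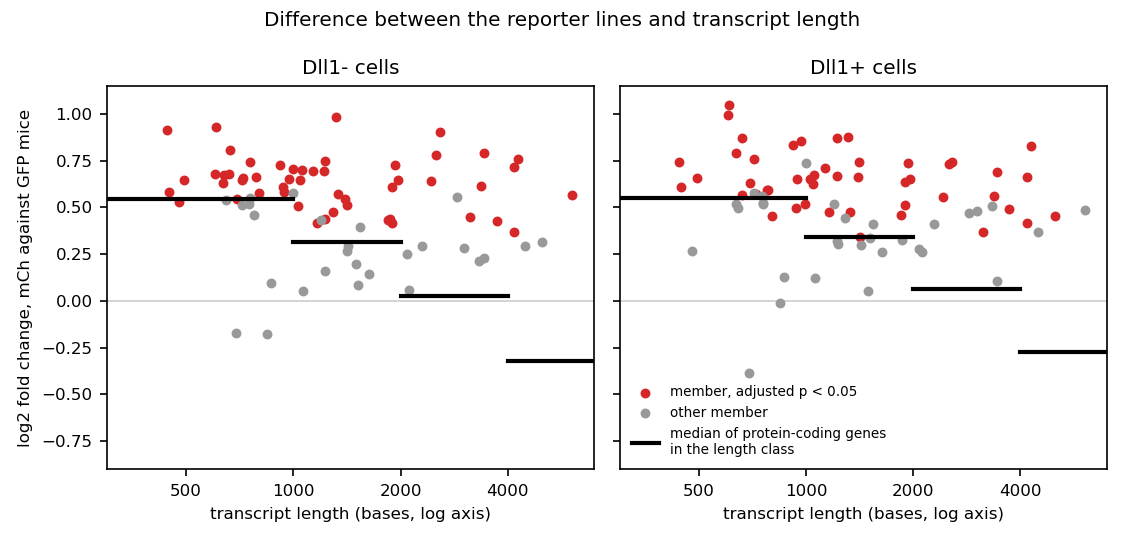
Log2 fold change between mCh and GFP mice (vertical axis) against transcript length (bases, log axis) for the 78 genes in Dll1- (left) and Dll1+ cells (right), in red where the adjusted p is under 0.05, with black bars for the median of all protein-coding genes in 4 length classes. The bars step down from 0.55 to -0.32 in Dll1- cells, while the medians of the 78 genes run from 0.62 to 0.47.

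Levels of the genes among themselves were compared per length, as CPM per 1000 bases of the median annotated coding transcript, over the 8 libraries. Their median was 23.8, against 8.49 for protein-coding genes tested, and the medians of large and small subunit genes were 24.05 and 24.9. Mrps21 was the highest, with 109 ± 27.5 (SD, n = 8 libraries), followed by Mrpl52 with 82.1 ± 25.3 and Mrps6 with 81.96 ± 8.30. The ranges of these 3 over the libraries, 79.4 to 155, 53.7 to 114 and 67.5 to 90.9, overlapped, so that their order is not fixed. At the other end were Mrpl23 (3.47 ± 0.791), Mrpl47 (3.85 ± 0.977) and Mrps25 (4.22 ± 1.04), which overlapped too. The place of Mrpl23 is uncertain, since its pseudogene Mrpl23-ps1 had 12580 counts over the libraries against 972 for the gene. Mrps25 is annotated with a long transcript, 6073 bases in the median, which lowers its value per length. None of Mrps21, Mrpl52, Mrpl47 and Mrps25 passed the threshold between Dll1+ and Dll1- cells, and their values on the log2 scale were -0.09, -0.05, -0.25 and -0.27, at edgeR adjusted p from 0.109 to 0.663.

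The promoter features can be set beside the Dll1+ effect. Of the 38 genes with a GABPA/ETS, YY1 or NRF1 core, 12 were lower in Dll1+ cells (median log2 fold change -0.16), and of the 31 with a window but none of these, 4 (median -0.21). The group with a core thus had more genes past the threshold and the weaker median, and the difference was not tested. For the 26 genes with a GABPA/ETS core, such as Mrpl18, Mrpl22 and Mrps27, the median was -0.14, and for the 8 with an NRF1 core it was -0.20. Of 29 head-to-head neighbours that were tested and are not in the set, 4 were lower and 2 higher in Dll1+ cells, against 7.04% and 6.98% of all genes. The median log2 fold change of the neighbours was -0.14. The fold change of the neighbour had the same sign as that of the ribosomal gene for 19 of the 29, and differences between neighbours were not tested. Ncapd2, a condensin subunit, Eme1, a subunit of a DNA endonuclease, and Ska3, a kinetochore protein, were lower by 0.76, 0.99 and 0.97, whereas Mrpl51, Mrpl27 and Mrpl57 at the same starts had -0.09, -0.01 and -0.07. The 2 that were higher were Klc4 and Wdfy1, by 0.34 and 0.27, beside -0.26 for Mrpl2 and -0.22 for Mrpl44. At the pair of Mrpl36 and Ndufs6 both genes were lower, by 0.26 and 0.26. These neighbours are named after their values were seen.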

How the data were processed

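RNA-seq was available for 8 libraries, a Dll1- and a Dll1+ library from each of 4 mice. The authors quantified reads with Salmon against GRCm38.p6, per the submitters' processing notes, using GENCODE M20 transcripts and tximport to reach genes, and the deposited table holds estimated counts per gene. The version of Salmon and its strand setting are not given in the sources used here. Estimated counts were rounded to whole numbers. Gene symbols, lengths and positions were taken from GENCODE M21, of the same build, which named 53668 of 53697 genes. The median length of a gene's coding transcripts was used as its length. Differences were tested in R 4.3.3 with the robust quasi-likelihood test of edgeR 4.0.16 after TMM scaling and filterByExpr, which left 18322 genes, with p-values adjusted over all of them and a threshold of 0.05. The Dll1 comparisons had mouse as a block, as in the authors' model. The comparison of the lines had 1 mean per group and no term for the mouse. Within-mouse differences used log2 CPM with a prior count of 2. The pairing comes from the mouse number in the labels. The deviations of paired libraries from their group means had a correlation of -0.05 in the GFP and 0.55 in the mCh line over 18322 genes. The fits were also run on counts simulated without a mouse effect and with planted changes larger than the shift reported here. Those runs do not show how the fits perform on that shift or with differences between mice. Alternatives were DESeq2 1.42.0 (Wald test and size factors), total count scaling, no filter and a minimum of 10 counts in every library, no replicate block, each reporter or Dll1 status fitted alone, and each mouse left out. The reporter in place of the mouse, and processed pseudogenes added to their gene, were chosen after seeing the data. Near copies were found with blastn 2.17.0+ at 95% identity over 300 bases or more. Named were the genes past the threshold over the 4 mice (up to 20), the 3 highest and 3 lowest fold changes in the GFP, mCh and line comparisons, the extremes of level per length, 6 genes chosen for their role, and up to 3 genes per list by p. The members and lists were chosen with earlier results of these data known, and the assignment to particles and origin was written after the values were seen. Total counts of 27301396 to 123907626 put 3 counts at 0.0240 to 0.105 CPM. With 2 mice per line, p-values rest on few animals.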

Additional observations from a re-analysis of the deposited data

Results flagged for a closer look

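Among the markers of other cells, 2 genes had a Dll1+ effect that differed between the reporter lines by the edgeR contrast of the effects. For Rgs5, a pericyte marker, the effect was 0.15 on the log2 scale in GFP mice and -2.95 in mCh mice, a difference of 3.10 (SE 0.19, adjusted p = 0.0233). For Lyz2, a myeloid marker of the immune list, the effects were 0.05 and -1.20, a difference of 1.25 (SE 0.10, adjusted p = 0.0356). No mitochondrial ribosomal protein gene was among the genes whose effect differed.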

How the results depend on the processing

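With the pairing by mouse dropped (no replicate block), edgeR called 0 mitochondrial ribosomal protein genes over the 4 mice, 0 in GFP and 0 in mCh mice. At an unadjusted p under 0.05, 0, 13 and 7 were lower, against 4.80%, 9.01% and 11.5% of all genes. With the reporter in place of the mouse 6 were called over the 4 mice, where 4.18% of all genes were lower. Over the 4 mice, in place of 17, the count was 12 without a filter on low counts, where 3.78% of all genes were lower. Total count scaling called 29, all lower, where 9.63% of all genes were lower. DESeq2's Wald test called 32, of which 31 were lower, where 12.2% of all genes were lower. The 17 genes were among those called with total counts and with the Wald test. Without a filter, 12 of them were called. Leaving out a mouse gave 0 to 22. In GFP mice, in place of 2, the count was 15 with total counts, 4 with DESeq2 and 10 without a filter. Of all genes, 7.42%, 5.71% and 4.45% were lower in these settings. The count was 8 with at least 10 counts in every library and 6 with this line alone, against 6.51% and 6.77% of all genes. Without an mCh mouse it was 9 or 8, as given above. The median in GFP mice was -0.21 with DESeq2 size factors, -0.28 with total counts, -0.21 with DESeq2, -0.21 with this line alone and -0.21 to -0.20 without a mouse. In mCh mice, in place of 2, the count was 5 with total counts and 6 without a filter, against 7.58% and 6.38% of all genes. It was 0 with this line alone, where 0 of all genes passed, and 0 without either GFP mouse. The difference between the lines gave 0 under every alternative run for it.

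Between the lines, Dll1- cells gave 32 genes with total counts, 25 when fitted alone and 0 to 67 without a mouse, with medians of 0.37 to 0.76. Dll1+ cells gave 29 with total counts (median 0.46) and 0 to 59 without a mouse. Fitted alone, Dll1+ cells gave 34. The mitochondrial ribosomal protein genes called in these settings were all higher in mCh mice.

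Without 1 mouse, 9 of the 78 genes changed sign over the 4 mice, 0 of them past the threshold. Among the genes chosen by the naming rule, signs turned for 6 in the comparison named beside each, none past the threshold as reported. Over the 4 mice without 1 mouse, Mrps36 ranged over -0.047 to 0.19 and Mrpl52 over -0.10 to 0.019, and Mrps36 in GFP mice over -0.20 to 0.53. Between the lines in Dll1- cells, Mrpl23 was 0.59 with its pseudogene and -0.41 to 0.055 without 1 mouse, and Mrps10 -0.024 with total counts and -0.14 to 0.26 without 1 mouse. In Dll1+ cells Mrpl23 was 0.58 with its pseudogene, Mrps6 0.0064 without a filter and -0.084 to 0.030 without 1 mouse, and Mrpl37 -0.011 with total counts and -0.043 to 0.12 without 1 mouse. Of the values of single genes under the alternatives, 709 kept their direction and side of the threshold, 146 no longer passed, 18 passed only there and 15 changed sign. Apart from the pseudogene, and the samples that leaving out a mouse removes, the cause was not tested. A line left with 1 mouse was assumed to vary like the other.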
